A study of Sus scrofa with 6 samples.

Results

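CD14 and SIRPA are a pair of myeloid surface markers that were also used as proteins to sort the pig blood dendritic cells (DC) studied here. Their mRNA was read from every probe to which the array files give the symbol CD14 or SIRPA, with all of their spots, so that 2 of the 23 genes with a symbol in the files are described. Each gene had 1 such probe, printed on 5 spots per array. The samples were 6 custom porcine 1-colour Agilent arrays, each carrying the amplified RNA of a single subset sorted from pig blood mononuclear cells, with 2 arrays for plasmacytoid DC (pDC), 2 for XCR1+ DC (cDC1) and 2 for XCR1- DC (cDC2). The question addressed was how the RNA of both markers is distributed over the subsets that their proteins helped to define.

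All of the subsets were sorted as CD14-. The pDC were CD3- CD14- CD4+ CD172int cells. The cDC1 were large, MHC class II+ cells lacking immunoglobulin, CD4 and CD14 that were CADM1+ and CD172lo, and the cDC2 came from the same parent gate as CADM1- cells with a CD172 level given as high or intermediate in the deposited protocol and in the paper's methods. The paper sorted the high and the intermediate cells separately and carried only the high ones into its later comparisons. The titles of these arrays name neither level. Their array names read SIRP+ CADM1-, and the paper's text also writes CD172+ for the high cells. Different anti-CD14 antibody clones were used for the pDC panel and for the cDC panel. RNA of distinct animals was mixed where a sort gave too little, and the labels do not say which arrays hold 1 animal. The names of the array files carry a code that is the same for cDC2 replicate 1, cDC1 replicate 1 and pDC replicate 2 and that, for cDC2 replicate 2 and cDC1 replicate 2, has characters in common. Its meaning is not given in the sources used here, so whether arrays share animals is not known. The p-values below therefore measure only the spread between arrays, part of which may be technical.

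CD14 is an anchored co-receptor that takes up bacterial lipopolysaccharide (LPS) and passes it to the TLR4 receptor complex, and it is the classical marker of blood monocytes. SIRPA encodes CD172a, an inhibitory receptor of myeloid cells that binds CD47 on neighbouring cells and, through phosphatases recruited to its tail, restrains phagocytosis. In pig blood CD172a is borne by monocytes and, in graded amounts, by DC, which is why it serves to separate DC subsets.

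The probes are shown because the result for SIRPA depended on which of 2 overlapping sequences was read. The array files give no genome position for any gene spot and no genome build, so that no coordinates, exon or UTR can be stated. The gene identifier within the CD14 probe's name was paired with CD14 in the table of gene names, whereas that within the SIRPA probe's name was not listed there and the symbol was taken from the array files. The CD14 probe of 60 bases, with 55.0% G and C, is printed under 3 probe names with identical bases, 7 spots per array in all. The SIRPA probe of 60 bases, with 45.0% G and C, has its last 33 bases in common with the first 33 of a second probe that carries no symbol (A_72_P440496, 1 spot, 55.0% G and C). Capitals mark the shared run, and the other 27 bases of each probe lie outside it.
CD14 probe: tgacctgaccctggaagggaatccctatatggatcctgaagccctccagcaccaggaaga
SIRPA probe: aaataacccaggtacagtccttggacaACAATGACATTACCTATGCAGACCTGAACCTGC
A_72_P440496: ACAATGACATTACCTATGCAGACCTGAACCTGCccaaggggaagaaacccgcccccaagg

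Levels are given as log2 of the background-corrected signal minus the 75th percentile of the gene spots of the same array, so that 75 percent of the gene spots of an array lie under a level of 0. No gene spot was saturated, and between 54.3% and 64.1% of the gene spots of an array were well above background by the scanner software's call. The comparisons were made with limma on the 6 arrays together, and p-values were adjusted by Benjamini-Hochberg over 26372 probes, those called well above background on each array of 1 subset or more. Named genes bore out the labels of the cDC1 and pDC arrays: XCR1, a chemokine receptor of cDC1, stood at 0.47 and 0.54 on the cDC1 arrays and no higher than -5.49 on the others, and TCF4, a transcription factor of pDC, stood at 7.21 and 6.96 on the pDC arrays and no higher than 4.46 on the others. CLEC9A, another cDC1 gene, was well above background on 1 array alone, a pDC array, and could not serve this check. For the arrays labelled XCR1- DC the check went otherwise. SIRPA itself was the only 1 of 7 cDC2 markers with a symbol, the monocyte markers CD14 and CSF1R were high, and FLT3, the growth factor receptor that marks DC, was low. FLT3 levels were -1.50 and -1.76 in cDC2, against 0.91 and 0.73 in cDC1 and 0.86 and 0.64 in pDC. It was lower in cDC2 than in cDC1, at a log2 difference of -2.45 (limma adjusted p = 0.0020), and lower than in pDC, at -2.38 (adjusted p = 0.0010). BATF3, a control gene for cDC or cDC1 in the paper, was lower in cDC2 than in cDC1, at -3.83 (limma adjusted p = 0.0052). It was higher in cDC2 than in pDC, at 4.31 (adjusted p = 0.0017). For ID2 these differences were -2.81 (adjusted p = 0.0016) and 1.52 (adjusted p = 0.0072). CD14, CSF1R and FLT3 thus go against the DC label of this subset, whereas BATF3 and ID2 lay between cDC1 and pDC. The name cDC2 serves below only for the cells sorted as CADM1- and labelled XCR1- DC. XCR1 itself was not part of any gate.

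CD14 mRNA was high in cDC2 although these cells had been sorted as CD14-. On the cDC2 arrays, the CD14 probe gave a mean signal of 1235 on replicate 1 and 2248 on replicate 2. On the pDC arrays the signal was 162 and 36.2. On the cDC1 arrays it was 57.2 and 65.4. Both cDC2 arrays were brighter than all of the other arrays, while 1 pDC array lay above both cDC1 arrays and the other below them.

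All 30 CD14 spots, 10 per subset, were well above background, those of the CD14- sorted cDC1 included. In the scaled values, CD14 stood at 1.90 and 3.26 in cDC2, a mean of 2.58 ± 0.96 (SD, n = 2 arrays). It stood at -0.73 and -2.66 in pDC, a mean of -1.69 ± 1.36 (SD, n = 2), and at -2.47 and -2.03 in cDC1, a mean of -2.25 ± 0.31 (SD, n = 2). The lowest level at which any probe was called well above background was between -5.52 and -4.18 on these arrays, so the CD14 signal of cDC1 lay clear of that limit.

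**Figure D1:**
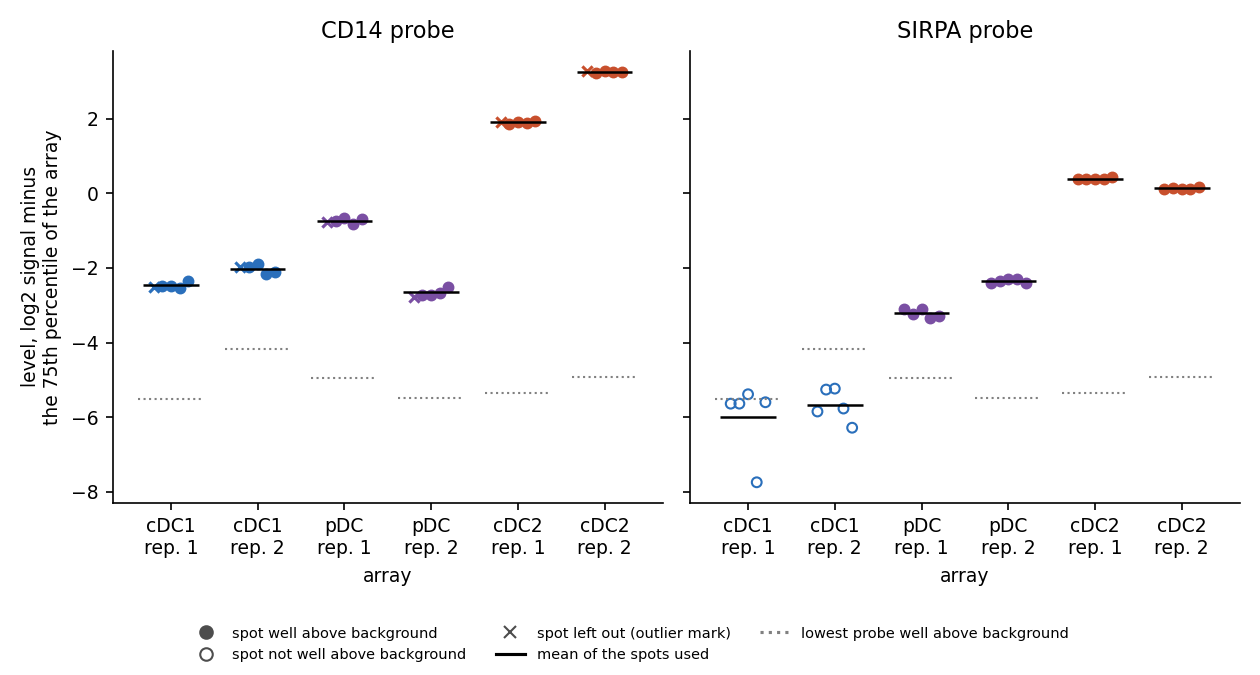
Levels of the CD14 probe (left) and the SIRPA probe (right) on each of the 6 arrays, as log2 signal minus the 75th percentile of the array (y axis). Each point is 1 spot, filled where it was well above background and open where it was not, crosses mark the CD14 spot that was left out, black lines are the means of the spots used and dotted lines the lowest level of any probe well above background on that array. All CD14 spots are above the limit on all arrays, whereas the 10 SIRPA spots of cDC1 are open.

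For CD14, spots of 1 array differed far less than arrays of 1 subset in cDC2 and pDC, and less in cDC1. The SD of the CD14 level over the spots of an array was between 0.013 and 0.13. The 2 cDC2 arrays differed by 1.36, or 2.56-fold, and 1.94% of the tested probes had a larger gap between these arrays. The 2 pDC arrays differed by 1.92, or 3.79-fold, and 3.33% of the tested probes had a larger gap. The 2 cDC1 arrays differed by 0.43, exceeded by 27.7% of the probes. The median gap over the tested probes was 0.23 in cDC2, 0.47 in pDC and 0.24 in cDC1, so that CD14 was among the more variable probes between arrays of cDC2 and of pDC, and the array, not the spot, set its error.

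**Figure D2:**
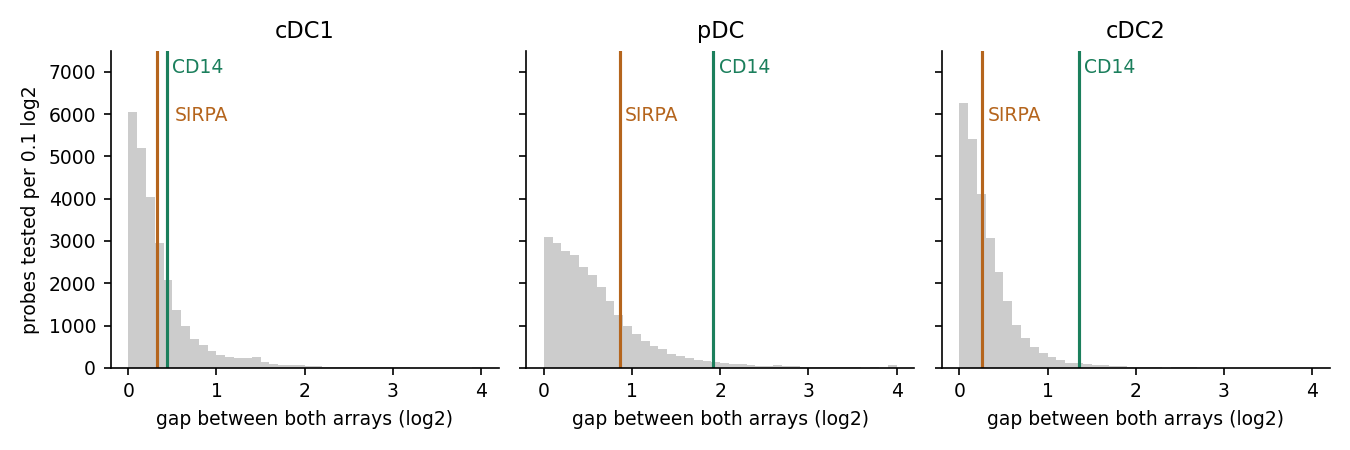
Gap between both arrays of a subset (x axis, log2) for all 26372 probes tested (grey bars, probes per bin of 0.1, the last bar with all gaps of 3.9 or more), with the gaps of CD14 and SIRPA as lines. CD14 lies far in the tail in pDC (1.92) and cDC2 (1.36), and SIRPA lies nearer the bulk (0.86 and 0.26).

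CD14 mRNA was higher in cDC2 than in cDC1, by 4.83 on the log2 scale or 28.5-fold (standard error 0.72 on the log2 scale, 95% confidence interval 8.56-fold to 95.2-fold, limma adjusted p = 0.0075). In this comparison 8.29% of the tested probes were called higher in cDC2, and 0.656% had a larger difference than CD14. The lower of the cDC2 arrays was 15.3-fold above the higher of the cDC1 arrays. In bulk RNA, a subset with fewer CD14-transcribing cells and a subset with less CD14 RNA per cell cannot be told apart. Without cDC2 replicate 2 the difference was 17.8-fold and its adjusted p was 0.059, and without cDC2 replicate 1 it was 45.7-fold (adjusted p = 0.028). With the scan day as a block, which compares the 4 arrays of 1 day only, it was 20.7-fold (adjusted p = 0.11). With normexp background correction, which adds an offset of 50 to each signal, it was 14.1-fold (adjusted p = 0.00032).

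CD14 mRNA was also higher in cDC2 than in pDC, by 4.28 on the log2 scale or 19.4-fold (standard error 0.72, 95% confidence interval 5.82-fold to 64.7-fold, limma adjusted p = 0.0062). In this comparison 16.9% of the tested probes were called higher in cDC2, and 2.17% had a larger difference. The lower cDC2 array was 6.22-fold above the higher pDC array, and these were the arrays that shared a slide, which gives a difference of 2.64 within that slide against 4.28 over all arrays. With the scan day as a block it was 12.1-fold (adjusted p = 0.057), and with normexp background correction the log2 difference was 3.41 (adjusted p = 0.00033). Single arrays moved the fold by more than 1.5 times: it was 37.8 without pDC replicate 1, 9.96 without pDC replicate 2, 31.1 without cDC2 replicate 1 and 12.1 without cDC2 replicate 2, with the call kept in each.

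Between pDC and cDC1, no difference in CD14 passed the test. The pDC mean exceeded the cDC1 mean by 0.56 (standard error 0.72, 95% confidence interval -1.18 to 2.30, limma adjusted p = 0.59), and the interval allows anything from 0.441-fold to 4.91-fold. The sign turned with a single array, from 0.56 to -0.40 without pDC replicate 1 and to 1.52 without pDC replicate 2. On the slide that held pDC replicate 2 and cDC1 replicate 1, pDC was lower, at -0.19. For CD14 the order was thus cDC2, then pDC and cDC1, which did not differ beyond their spread.

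The 2 further probes of identical bases gave the same picture from other places on the array. Their levels differed from those of the CD14 probe by between 0.0040 and 0.10 on any array. They put cDC2 above cDC1 by 4.85 in both cases, above pDC by 4.36 and 4.22, and pDC above cDC1 by 0.49 and 0.63. Over all 169 pairs of tested probes with identical bases, the median gap in the difference between cDC2 and cDC1 was 0.061. Since these probes read the same bases of the same RNA, their likeness bears on the measurement within an array and not on the spread between samples.

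SIRPA mRNA was lowest in cDC1, the subset gated as CD172lo, intermediate in pDC and highest in cDC2. On the cDC2 arrays the SIRPA probe gave a mean signal of 434 and 257. On the pDC arrays it gave 29.0 and 44.6. On the cDC1 arrays it gave 5.63 and 5.40.

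All 20 SIRPA spots of cDC2 and pDC were well above background, and 0 of the 10 spots of cDC1 were. In the scaled values, SIRPA stood at 0.40 and 0.13 in cDC2, a mean of 0.27 ± 0.18 (SD, n = 2 arrays), and at -3.21 and -2.35 in pDC, a mean of -2.78 ± 0.61 (SD, n = 2). In cDC1 the measured values were -6.00 and -5.68, a mean of -5.84 ± 0.23 (SD, n = 2), both under the lowest level well above background on those arrays, -5.52 and -4.18. The spots of cDC1 were correspondingly uneven, with an SD over spots of 0.98 on replicate 1 and 0.44 on replicate 2 against 0.022 and 0.025 on the cDC2 arrays. Before correction these cDC1 spots had a mean signal of 45.3 and 68.4 with a local background of 22.8 and 26.8, and the scanner software's p-value for equality with background was at most 0.047 on replicate 1 and at most 0.89 on replicate 2. The cDC1 spots thus gave some signal but none that was called well above background, and the folds against cDC1 are given as bounds. Between replicates, SIRPA differed by 0.26 in cDC2 and 0.86 in pDC, and 45.6% and 22.8% of the tested probes had a larger gap there, so that SIRPA was no more variable than many other probes.

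On the scale used here, SIRPA mRNA was at least 34.6-fold higher in cDC2 than in cDC1. The lowest level well above background on each cDC1 array was taken as the cDC1 value. The bound holds for the mean over spots, and 1 of the 5 spots of cDC1 replicate 1 lay above the limit of its array. In the authors' normalized values the difference was smaller than the bound, at 22.8-fold. The measured means differed by 6.11 on the log2 scale (standard error 0.35, limma adjusted p = 0.00046), a size that rests on cDC1 values not well above background. The bound was 21.7-fold without cDC1 replicate 1 and 55.0-fold without cDC1 replicate 2, since the limit lay higher on the latter array. No slide held both subsets, and within the scan day that did the measured difference was 6.40. With normexp background correction the difference was 5.85-fold (adjusted p = 6.6e-05). The overlapping probe A_72_P440496 gave 4.22-fold.

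SIRPA mRNA was 8.27-fold higher in cDC2 than in pDC, a log2 difference of 3.05 (standard error 0.35, 95% confidence interval 4.60-fold to 14.9-fold, limma adjusted p = 0.0015). Here both subsets were measured well above background, and the lower cDC2 array was 5.61-fold above the higher pDC array. Within the shared slide the difference was 3.61, and with normexp background correction the fold was 3.54 (adjusted p = 0.00024). The overlapping probe, described below, gave 1.63-fold in this comparison and did not pass the test (limma adjusted p = 0.13).

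On the scale used here, SIRPA mRNA was at least 4.18-fold higher in pDC than in cDC1. The measured means differed by 3.06 (standard error 0.35, limma adjusted p = 0.0020). Before correction, the SIRPA spots had a mean signal of 70.6 and 89.6 on the pDC arrays. On the cDC1 arrays it was 45.3 and 68.4, so the size of this bound depends on the background correction. In the authors' normalized values the difference was smaller than the bound, at 3.83-fold, and the overlapping probe gave 2.59-fold. In this comparison 13.6% of the tested probes were called higher in pDC. On the slide that held 1 array of each, the measured difference was 3.65. The bound was 2.63-fold without cDC1 replicate 1 and 6.65-fold without cDC1 replicate 2, and with normexp background correction the difference was 1.65-fold (adjusted p = 0.036). Of the 26372 probes, 113 (0.428%) shared the pattern of SIRPA, called higher in cDC2 than in pDC and cDC1 and higher in pDC than in cDC1. The CD14 pattern, called higher in cDC2 than in each of the others with no call between pDC and cDC1, was shared by 1051 probes (3.99%). Since the CD172 protein was part of each gate, the direction of the SIRPA differences is not independent of the sort.

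The probe without a symbol that overlaps the SIRPA probe showed much smaller differences. It was well above background on all 6 arrays, at 0.70 and 0.72 in cDC1, 1.70 and 2.47 in pDC and 2.77 and 2.81 in cDC2. The order of the subset means was that of the SIRPA probe. How many of all tested probes have this order was not counted. It was higher in cDC2 than in cDC1 by 2.08 on the log2 scale or 4.22-fold (standard error 0.31, limma adjusted p = 0.0077) and higher in pDC than in cDC1 by 1.38 or 2.59-fold (adjusted p = 0.021). Between cDC2 and pDC it differed by 0.70 or 1.63-fold (95% confidence interval -0.047 to 1.45 on the log2 scale, adjusted p = 0.13), which did not pass the test. With the scan day as a block neither of the former calls held, at 2.07 for cDC2 against cDC1 (adjusted p = 0.26) and 1.38 for pDC against cDC1 (adjusted p = 0.24).

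The disagreement was tested by fitting the SIRPA level minus that of the overlapping probe as 1 more row. The difference between cDC2 and pDC was larger by 2.35 on the log2 scale for the SIRPA probe (standard error 0.25, limma adjusted p = 0.0012), with both probes well above background on all 4 arrays. That between cDC2 and cDC1 was larger by 4.03 (adjusted p = 0.00049) and that between pDC and cDC1 by 1.68 (adjusted p = 0.0051), both of which rest on SIRPA values of cDC1 that are not well above background. With normexp background correction the excess was 1.16 between cDC2 and pDC (adjusted p = 0.0021), 0.67 between cDC2 and cDC1 (adjusted p = 0.052) and -0.49 between pDC and cDC1, so only the first kept its call. The excess between pDC and cDC1 also lost its call with the scan day as a block (1.84, adjusted p = 0.096) and in the authors' normalized values (0.69, adjusted p = 0.071), in which the others kept theirs. Which transcripts each probe binds was not tested, as no table pairs the overlapping probe with a gene.

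Few of the overlapping pairs on this array had as large a gap. Over the 1170 pairs of tested probes with a shared run of at least 30 bases that were not identical, the gap between the differences of a pair had a median of 0.057 and a 95th percentile of 0.55 for cDC2 against pDC. The SIRPA pair, at 2.35, was exceeded by 2 of the 1170 pairs there. No place is given for the comparisons with cDC1, in which SIRPA was not well above background. This is a description of pairs that may share probes, and not a test. The pairs were not matched to the SIRPA pair for the length of the shared run or for brightness. Their gaps were close to those of the 169 pairs with identical bases (median 0.051, 95th percentile 0.52 for cDC2 against pDC). They therefore cannot show how rare such a gap is among probes that share only 33 bases.

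**Figure D3:**
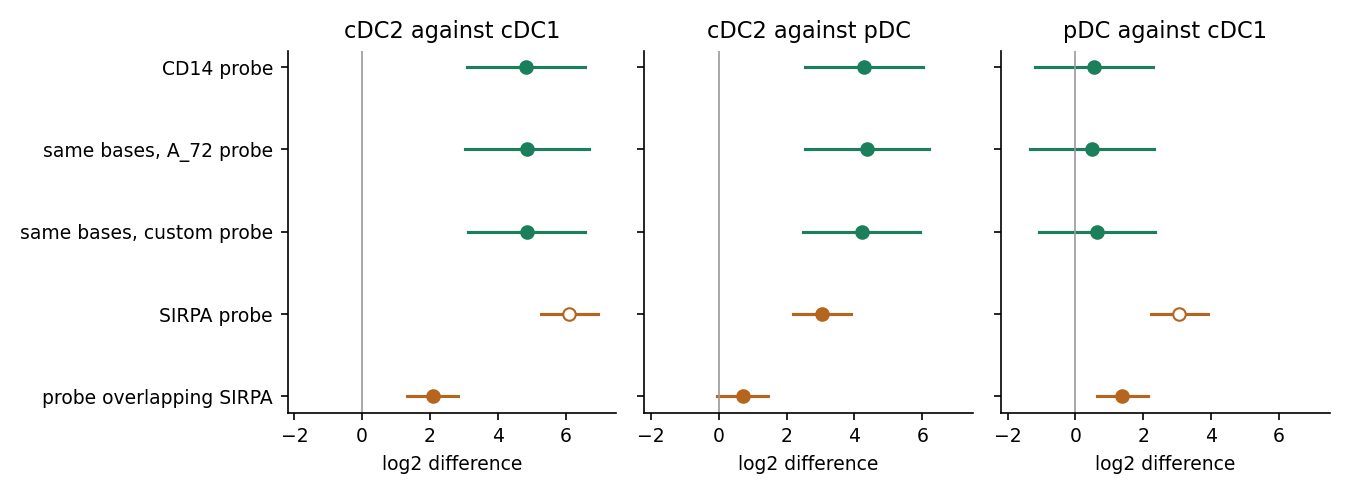
Log2 differences between subsets (points) with 95% confidence intervals from limma (lines) for the CD14 probe, both probes of identical bases, the SIRPA probe and the probe that overlaps it. Open points mark SIRPA differences in which cDC1 was not well above background. The CD14 probes coincide, and the overlapping probe lies far below the SIRPA probe in each panel.

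In cDC2 and in pDC, the CD14 probe and the SIRPA probe differed in opposite directions between the arrays of a subset. In cDC2, replicate 2 was higher than replicate 1 by 1.36 for CD14 and lower for SIRPA, at -0.26. In pDC, replicate 2 was lower for CD14, at -1.92, and higher for SIRPA, at 0.86. In the authors' normalized values the same differences were 1.26 and -0.25 in cDC2 and -1.61 and 0.81 in pDC. The overlapping probe had the sign of SIRPA in pDC, at 0.77 here and 0.60 in the authors' values. In cDC2 it had the sign of CD14, at 0.042 and 0.011, so the opposite direction there rests on the SIRPA probe alone. In cDC1 replicate 2 was higher for CD14, by 0.43 here and 0.28 in the authors' values, while SIRPA, not well above background there, had no settled direction, at 0.32 here and -0.39 in the authors' values. This is a description of 3 pairs of arrays.

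Among named genes, the one whose pattern over the 6 arrays was most like that of CD14 was CSF1R, the receptor for the monocyte growth factor M-CSF, with a Pearson r of 0.96. A higher r with CD14 was found for 169 of the other 26371 tested probes (0.641%). SIRPA followed at 0.84 and FOXO3, a forkhead transcription factor, at 0.76, values that 5.91% and 9.32% of the probes exceeded. The least alike were FLT3, the receptor that DC precursors need to develop, at -0.94, XCR1 at -0.67 and DMC1, a meiotic recombinase, at -0.59. For SIRPA the most alike were FOXO3 at 0.94, CD14 at 0.84 and CSF1R at 0.81. A higher r with SIRPA was found for 1.30%, 5.13% and 6.14% of the probes. The least alike were XCR1 at -0.92, FLT3 at -0.87 and DMC1 at -0.84. The 6 points come in 3 subsets of 2 arrays, so that r mainly describes the order of the subset means. SIRPA was not well above background on the cDC1 arrays, nor XCR1 on 3 of the others, and DMC1 was so on only 5 of the 6 arrays. An r with SIRPA, XCR1 or DMC1 thus rests in part on values not well above background, and each r here is a description.

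**Figure D4:**
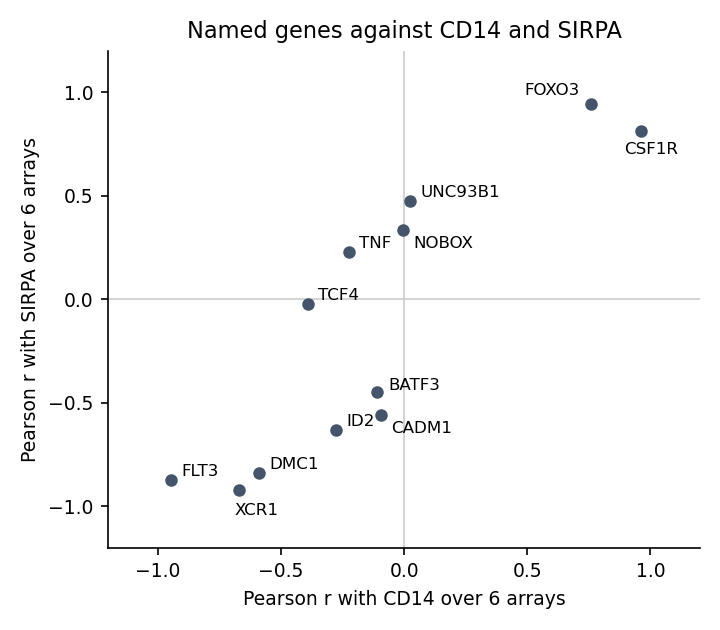
Pearson r over the 6 arrays of the other named genes that passed the filter on dim probes with CD14 (x axis) and with SIRPA (y axis), 1 point per gene. CSF1R and FOXO3 lie high for both markers, while FLT3, XCR1 and DMC1 lie low for both.

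CD14 and CSF1R were the 2 of 14 monocyte and macrophage markers that carry a symbol in the files, and both were called higher in cDC2 than in cDC1 and in pDC, calls that 8.29% and 16.9% of the tested probes shared. CSF1R stood at 3.68 and 3.49 on the cDC2 arrays, -2.95 and -4.48 on the pDC arrays and -3.32 and -3.25 on the cDC1 arrays. It was higher in cDC2 than in cDC1 by a log2 difference of 6.87 (limma adjusted p = 0.00074) and higher than in pDC by 7.30 (adjusted p = 0.00027). In pDC the array with more CD14 also had more CSF1R, and in cDC2 the array with more CD14 did not. The part of monocytes in the CD14 signal of the sorted cells was not tested.

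Of 21 genes of the LPS receptor and its signalling, 4 carry a symbol and 2 were tested, CD14 and TNF. IL12A and IL12B, the subunits of the cytokine IL-12, were not well above background on any array. TNF, an inflammatory cytokine, stood at -0.89 and 0.056 in cDC1, 1.10 and 1.41 in cDC2 and 5.97 and 8.09 in pDC. It was higher in pDC than in cDC1 by a log2 difference of 7.45 (limma adjusted p = 0.0011) and lower in cDC2 than in pDC, at -5.77 (adjusted p = 0.0019), while cDC2 exceeded cDC1 by 1.67 (adjusted p = 0.18). CD14 was thus 1 of 2 tested genes called higher in cDC2 than in cDC1, against 8.29% of the tested probes, and TNF was 1 of 2 called higher in pDC than in cDC1, against 13.6%. Of 9 genes of the SIRPA and CD47 checkpoint, SIRPA alone carries a symbol.

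Of 6 genes whose proteins served as sorting markers, CD14, SIRPA and CADM1 carry a symbol. CADM1, an adhesion molecule used to part cDC1 from cDC2, stood at 0.91 and 0.93 in cDC1, -2.41 and -2.90 in cDC2 and -4.14 and -6.85 in pDC. It has 2 probes with its symbol, of which the brighter is given. The last value, of pDC replicate 2, was not well above background, the limit of that array being -5.49. Between cDC1 and cDC2, the RNA of CADM1 and SIRPA was higher in the subset gated as bearing more of the protein. The CADM1 level was lower in cDC2 than in cDC1, at a log2 difference of -3.58 (limma adjusted p = 0.032). For CD14 the gate was negative in every subset, and the RNA still differed by 28.5-fold between cDC2 and cDC1.

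**Figure D5:**
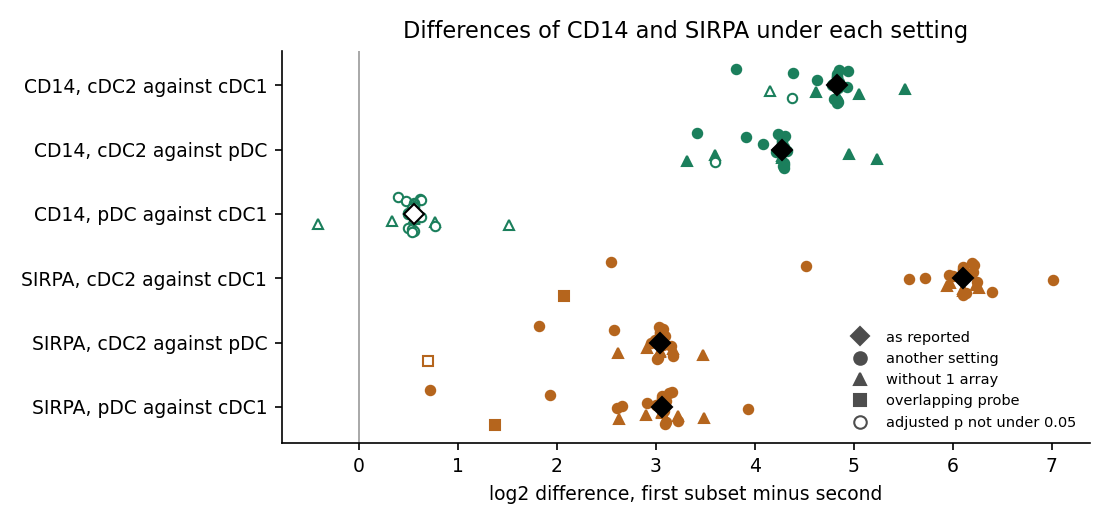
Log2 differences of CD14 and SIRPA in the 3 comparisons (x axis) as reported (black diamonds), under each other setting (circles), without 1 array (triangles) and, for SIRPA, with the overlapping probe in its place (squares). Open symbols did not pass the test at an adjusted p of 0.05. CD14 in cDC2 stays between 3.32 and 5.51. In cDC2 against cDC1 the SIRPA probe spreads from 2.55 to 7.01, and the overlapping probe lies at 2.08.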

How the data were processed

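The members and gene lists were chosen with earlier results of these data known. Per array, the authors deposited the output of Agilent Feature Extraction 10.7.3.1, with spot intensity on a linear scale and a p-value per spot for the hypothesis that it equals background, and 1 table of log2 values normalized by a method that is not given in the sources used here. Its 6 columns of these arrays served as an alternative, and 5 columns of other subsets were not used. Its sorted columns differed by at most 0.0256, and it correlated with the scanner values at 0.984 to 0.989. Here the processed intensity was put on the log2 scale and reduced by the array's 75th percentile over 42018 gene spots, without 1417 control spots and 19 gene spots with an outlier mark on any array, which include 1 of 5 CD14 spots, marked on cDC1 replicate 1. Spots were averaged to 41901 probes. The fit in limma 3.58.1 (R 4.3.3) had a coefficient for each subset, 3 residual degrees of freedom and no block, and was tested on simulated data. The number of arrays limits the precision. Likeness was Pearson r with the brightest probe of each named gene, naming the 3 highest and 3 lowest. The pair of SIRPA probes, the scan day block, the differences within a batch and the checks on the code in the file names were added after seeing the data. Python 3.11.15 was used for the rest.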

Additional observations from a re-analysis of the deposited data

How the results depend on the processing

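The 6 differences of CD14 and SIRPA were recomputed under 19 or 20 other settings each and without each array, and all kept their direction except CD14 in pDC against cDC1. Without 1 array, CD14 ranged from 4.16 (without cDC2 replicate 2, adjusted p = 0.059) to 5.51 in cDC2 against cDC1, from 3.32 to 5.24 in cDC2 against pDC and from -0.40 to 1.52 in pDC against cDC1, and SIRPA from 5.95 to 6.27, from 2.62 to 3.48 and from 2.63 to 3.49. With the scan day as a block, which leaves 1 residual degree of freedom, CD14 was 4.37 in cDC2 against cDC1 and 3.60 in cDC2 against pDC, no longer past the threshold, and 592, 2856 and 1979 probes were called in cDC2 against cDC1, cDC2 against pDC and pDC against cDC1, where 4239, 8615 and 7597 had been. With the overlapping probe, which carries no symbol, in place of the SIRPA probe, the difference was 0.70 in cDC2 against pDC (limma adjusted p = 0.13). Without the filter on dim probes 2335 probes were called in cDC2 against cDC1 and 4371 in pDC against cDC1. Without 1 array the counts ranged from 1475 to 6129, from 4236 to 10383 and from 3968 to 8973. With normexp background correction the excess of the SIRPA probe over the overlapping probe in pDC against cDC1 reversed, to -0.49. The causes of these moves were not tested. The SIRPA probe has no value among the probes well above background on all arrays, since cDC1 was not. Each gene has 1 probe with its symbol, so an average over probes changes nothing. Keeping the marked CD14 spot gave 4.83 in cDC2 against cDC1. Scaling by the median of each array moved the median over probes of pDC against cDC1 to 0.11.

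The replicate numbers were shared by the subsets in the labels, but the deviations of same-numbered arrays correlated at 0.27 for cDC1 with cDC2, 0.043 for cDC1 with pDC and 0.089 for cDC2 with pDC, and the number was not taken as a pairing. With the replicate block the counts were 4096, 8491 and 7542, and no call for CD14 or SIRPA changed. With the slide as a random block CD14 was 4.63 and SIRPA 6.20 in cDC2 against cDC1. The code in the file names joins replicate 1 of cDC2 and cDC1 to replicate 2 of pDC. As a random block it put SIRPA at 6.13 and the adjusted p of CD14 at 0.0055 in cDC2 against cDC1 and changed no call, nor did a block that also joined cDC2 and cDC1 replicate 2, whose codes have characters in common (CD14 adjusted p = 0.0042). Among the first 3 arrays, with no test, CD14 differed by 4.37 in cDC2 against cDC1, 4.56 in cDC2 against pDC and -0.19 in pDC against cDC1, and SIRPA by 6.40, 2.75 and 3.65.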
